A study of Mus musculus with 8 samples.

Results

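The genes described here are 10 enzymes that break down pyrimidines and purines, Tymp, Upp1, Upp2, Dpyd, Dpys, Upb1, Cda, Xdh, Uox and Urah, chosen by symbol from the 23337 gene symbols of a mouse liver RNA-seq experiment. All 10 were found, with Urah listed under its older symbol 1190003J15Rik, and all 10 passed the filter on low counts. The experiment had 8 liver libraries in 4 groups of 2, fasted WT, fasted KO, refed WT and refed KO, from C57BL/6 mice aged 12 weeks. The WT mice carried no deletion by their label. The paper describes its control mice as carrying floxed HRD1 without the Cre, but does not state this for the WT mice of the RNA-seq. The KO mice, labelled Hrd1-/-, were mice with floxed HRD1 crossed to a Cre driven by the albumin promoter (HRD1Alb mice), so the deletion is directed to the liver from early development and whole-liver RNA can also hold transcripts of cells without it. Fasted mice went without food overnight, and refed mice were fasted overnight and given food for 4 h. HRD1, encoded by Syvn1, is a ubiquitin ligase of the endoplasmic reticulum. The sources used here do not say whether the 2 libraries of a group came from separate mice, so p-values measure the spread between these libraries, which may be technical.

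Nucleosides set free when RNA, DNA and nucleotides turn over are cleaved by phosphorylases into a base and a sugar phosphate. Uracil and thymine are then reduced, opened and cut to beta-amino acids in 3 successive steps carried out by Dpyd, Dpys and Upb1, while purine bases are oxidized to urate by Xdh. In the mouse, unlike in humans, urate is oxidized further by Uox and Urah toward allantoin, and the liver is a main site of both routes.

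Levels are given as CPM, the count of a gene relative to the total count of its library after TMM scaling, and a gene is said to have risen or fallen where the adjusted p of edgeR's quasi-likelihood test was under 0.05. Several of these enzymes had fewer transcripts in KO than in WT liver, and none was called higher in any comparison. In fasted liver, 1 of the 10 genes, Tymp, fell in KO against WT, while 0.433% of the 14328 tested genes were called lower. In refed liver, 4 of the 10, Tymp, Upp2, Dpyd and Uox, were lower in the libraries labelled refed KO than in refed WT, against 4.84% of all tested genes. On refeeding, 1 of the 10 genes, Tymp, fell in WT liver (1.41% of tested genes were called lower), and 2 of the 10, Tymp and Upp2, fell in KO liver (5.05% of tested genes). The median log2 fold change of the 10 genes between genotypes was -0.49 in fasted and -0.48 in refed liver, beside -0.024 and 0.044 over all tested genes. The corresponding medians for refeeding were -0.070 in WT and 0.059 in KO liver, beside 0.0013 and 0.022 over all tested genes. The number called depended on single libraries. Each omission of a library left 1 library in its group, whose own spread could not then be measured. Calls kept or gained after an omission are therefore not a second test of a difference. In fasted liver 6 of the 10 (Tymp, Upp1, Dpyd, Dpys, Uox and Urah) were called lower without replicate 1 or without replicate 2 of the libraries labelled refed KO, and 0 without any 1 of the other 6 libraries. The 2 omissions that gave 6 also raised the share of all tested genes called lower, to 11.8% and 11.6%. In refed liver the number called lower was 5 without replicate 1 of the libraries labelled refed KO, where 27.8% of tested genes were called lower, and 3 of the 10 were then called higher, where 25% of tested genes were. It was 7 without replicate 2 of that pair (11.7% of tested genes), 2 without any 1 fasted library (1.17 to 1.97% of tested genes), and 0 without refed WT replicate 1 or 2. For refeeding it was 2 in WT liver (8.61% and 8.56% of tested genes) and 3 in KO liver (26.6% and 9% of tested genes) without replicate 1 and 2 of the libraries labelled refed KO, 0 in WT liver without any 1 of the other 6, and 0 in KO liver without fasted KO replicate 1. When the 4 libraries of a comparison were fitted alone, none of the 10 was called in refed liver or on refeeding in KO liver, where edgeR called 0 genes in all (2934 and 2716 had an unadjusted p under 0.05), and 5 were called lower in fasted liver (6.32% of tested genes).

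Total counts ranged from 40210576 to 49117080 per library. The TMM factors of replicates 1 and 2 were 0.877 and 0.837 in fasted WT and 1.11 and 1.13 in fasted KO. They were 0.952 and 0.947 in refed WT and 1.22 and 0.992 in the libraries labelled refed KO. A larger factor lowers every CPM of its library, so the size of the genotype differences depends on this scaling. Differences without it were not tested. Syvn1, the deleted gene, had 111 and 99.8 CPM in fasted WT, 32.6 and 31.5 CPM in fasted KO, 637 and 305 CPM in refed WT, and 453 and 132 CPM in the libraries labelled refed KO. Its 2 genotypes were thus separate in fasted liver and overlapped in refed liver (log2 fold changes of -1.72 ± 0.56 and -0.69 ± 0.55 (SE, n = 2), edgeR adjusted p = 0.170 and 0.391). These counts span the whole gene, and the text of the sources used here does not say which exons are floxed. Reads from any exons left in KO would be included, so the counts did not check the deletion in refed liver. The cause of the overlap there was not tested. The paper reports loss of both HRD1 mRNA and protein in HRD1Alb liver. Replicate 2 of the libraries labelled refed KO stood apart: its ratio to replicate 1 fell with transcript length across 14168 genes (Spearman rho = -0.56, beside -0.113 to 0.0239 for the other pairs), and 3204 genes differed at least 2-fold between this pair, beside 424 to 1141 in the other pairs. The summed level of the 5 hepatocyte markers Alb, Apoa1, Ttr, Tat and Hnf4a was 122327 to 133715 CPM in fasted WT, 78061 to 79495 CPM in fasted KO, 97180 to 104408 CPM in refed WT and 57994 to 97457 CPM in the libraries labelled refed KO. None of these 5 was called in any comparison and none was at 0. The summed 6 Kupffer cell and macrophage markers were at 96.3 to 104, 236 to 315, 107 to 111 and 232 to 446 CPM in the same order. Of these, 2 of 6 were called higher in KO in fasted and 6 of 6 in refed liver. Over all tested genes 0.921% in fasted and 7.09% in refed liver were called higher. The 5 stellate cell and fibroblast markers summed to 149 to 310, 363 to 382, 143 to 178 and 307 to 435 CPM, with 2 of 5 called higher in refed liver. In refed liver 1 of 3 lymphocyte and 1 of 2 neutrophil markers were also called higher, and no cholangiocyte or endothelial marker was called in any comparison. In whole-liver RNA, fewer cells of a type and less RNA per cell cannot be told apart, and the part of cell composition in the results below was not tested.

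**Figure D1:**
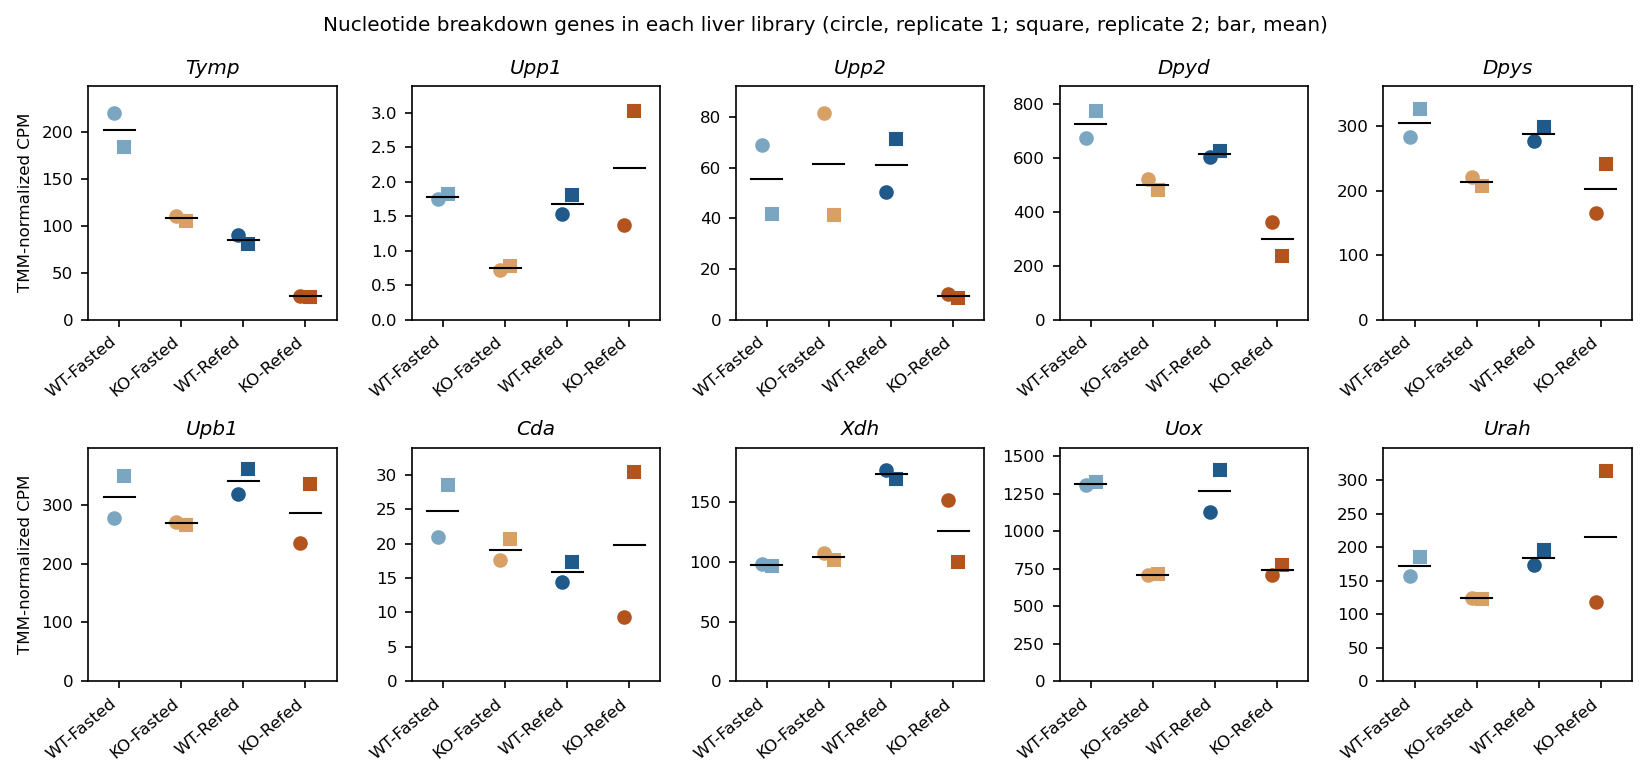
TMM-normalized CPM (vertical axis, from 0) of the 10 breakdown genes in each of the 8 liver libraries (horizontal axis, the 4 groups); circles are replicate 1, squares replicate 2 and bars the mean of the 2. Tymp steps down from fasted WT to the libraries labelled refed KO, Upp2 is low in those 2 libraries alone (10.1 and 8.66 CPM), and Uox is lower in both KO groups, while Cda and Urah are split between the 2 libraries labelled refed KO.

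Tymp encodes thymidine phosphorylase, which releases thymine from thymidine. Its level was 220 and 183 CPM in fasted WT, 110 and 105 CPM in fasted KO, 90.3 and 79.98 CPM in refed WT, and 25.6 and 24.2 CPM in the libraries labelled refed KO. The 4 groups followed each other in this order with no overlap, and each pair of libraries lay close together. KO was lower than WT by a log2 fold change of -0.91 ± 0.16 (SE, n = 2) in fasted liver (edgeR adjusted p = 0.0499), which is 1.87-fold. In refed liver the genotype difference was -1.78 ± 0.17 (edgeR adjusted p = 0.00559), or 3.42-fold. Refeeding lowered Tymp in both genotypes, by a log2 fold change of -1.25 ± 0.16 in WT (2.37-fold, edgeR adjusted p = 0.0197) and of -2.11 ± 0.17 in KO (4.33-fold, edgeR adjusted p = 0.00346). The difference between these 2 feeding effects was -0.87 ± 0.23, with an unadjusted p of 0.00593 and an edgeR adjusted p of 0.561. The fasted call stood at the threshold and was lost without any 1 of the fasted WT, fasted KO or refed WT libraries (edgeR adjusted p from 0.125 to 0.406). The refed call was lost without refed WT replicate 1 or 2 (0.0778 and 0.0692), the WT feeding call without any 1 of those same 6 libraries (0.0826 to 0.224), and the KO feeding call without fasted KO replicate 1 (0.0521).

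Tymp lies on the minus strand of chromosome 15 at 89371931 to 89377039 (GRCm38, the build mm10 of the files), and its exons share bases with 2 neighbours. Of its 2037 exonic bases, 856 are shared on the same strand with Sco2, a gene for copper delivery to cytochrome oxidase, and 535 with Ncaph2, a condensin subunit on the opposite strand. Sco2 had 0 counts in all 8 libraries, so reads of the shared bases cannot be assigned to one of these 2 genes from the counts. Ncaph2 had group means between 41.6 and 47.2 CPM and did not follow the order of Tymp. Whether the counting used strand is not stated.

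Upp2 and Upp1 encode uridine phosphorylases, which release uracil from uridine; Upp2 is the liver form. Upp2 was at 68.8 and 41.9 CPM in fasted WT, 81.7 and 41.2 CPM in fasted KO, 50.4 and 71.3 CPM in refed WT, and 10.1 and 8.66 CPM in the libraries labelled refed KO. The first 3 groups overlapped one another and varied widely within each pair, whereas both libraries labelled refed KO lay far below all the others. KO was lower than WT in refed liver by a log2 fold change of -2.70 ± 0.40 (6.49-fold, edgeR adjusted p = 0.0135), the largest difference among the 10 genes in this comparison. In fasted liver the difference was 0.15 ± 0.37 (edgeR adjusted p = 0.882). Refeeding lowered Upp2 in KO liver by a log2 fold change of -2.71 ± 0.40 (6.55-fold, edgeR adjusted p = 0.0117), and in WT liver the change was 0.14 ± 0.37 (edgeR adjusted p = 0.916). The difference between the feeding effects was -2.85 ± 0.54, with an unadjusted p of 0.000939. Its adjusted p was 0.544 in edgeR and 0.000421 in DESeq2, so the call depends on the test. In edgeR the difference was -2.97 without replicate 1 and -2.74 without replicate 2 of the libraries labelled refed KO, where that group held 1 library. The refed genotype call was lost without refed WT replicate 1 or 2 (edgeR adjusted p = 0.0974 and 0.109), and the KO feeding call without fasted KO replicate 1 (0.0784).

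Upp1 was expressed at a very low level, at 37 to 138 counts per library. It was at 1.75 and 1.82 CPM in fasted WT, 0.724 and 0.781 CPM in fasted KO, 1.53 and 1.81 CPM in refed WT, and 1.37 and 3.02 CPM in the libraries labelled refed KO. The fasted KO pair lay below all other libraries, and the last pair spanned the refed WT values. The log2 fold change between genotypes was -1.24 ± 0.41 in fasted liver (edgeR adjusted p = 0.171) and 0.39 ± 0.39 in refed liver (0.495), and none of the comparisons of Upp1 passed the threshold. The value closest to it was that of refeeding in KO liver, 1.54 ± 0.41 (edgeR adjusted p = 0.0543), which became 2.0 without replicate 1 (0.000877) and 0.86 without replicate 2 (0.0860) of the libraries labelled refed KO. The refed genotype value took the opposite sign, -0.29, without replicate 2 of the libraries labelled refed KO (edgeR adjusted p = 0.507) and was 0.85 without replicate 1 (0.0338).

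The sequences before the starts of Tymp and Upp2 are shown because these 2 genes had the largest falls in the libraries labelled refed KO. Each run is 250 bases upstream of a RefSeq start on GRCm38.p6, 5′ to 3′ on the strand of the gene, with capitals for matches on either strand to the CCAAT box or to CCACG, the second part of the endoplasmic reticulum stress element.
Tymp (chr15:89377037-89377286, minus strand): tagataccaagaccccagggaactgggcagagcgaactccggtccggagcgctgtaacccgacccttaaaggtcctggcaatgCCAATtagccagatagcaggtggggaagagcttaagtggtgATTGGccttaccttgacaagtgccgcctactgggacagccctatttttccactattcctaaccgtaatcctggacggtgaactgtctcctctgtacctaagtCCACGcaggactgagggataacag
Upp2, start 1 (chr2:58567084-58567333, plus strand): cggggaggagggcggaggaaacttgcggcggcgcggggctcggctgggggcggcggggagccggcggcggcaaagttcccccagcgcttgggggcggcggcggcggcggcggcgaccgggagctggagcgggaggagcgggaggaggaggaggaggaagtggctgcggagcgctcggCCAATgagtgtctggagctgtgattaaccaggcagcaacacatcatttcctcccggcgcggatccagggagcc
Upp2, start 2 (chr2:58754934-58755183, plus strand): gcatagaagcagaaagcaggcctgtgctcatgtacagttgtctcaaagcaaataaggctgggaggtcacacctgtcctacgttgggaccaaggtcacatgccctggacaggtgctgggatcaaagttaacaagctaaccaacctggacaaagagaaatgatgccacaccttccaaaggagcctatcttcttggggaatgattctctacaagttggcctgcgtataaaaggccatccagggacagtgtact
Tymp held 2 CCAAT matches, the nearer of them 126 bases before the start and on the opposite strand, and 1 CCACG match 24 bases before it. Start 1 of Upp2 held 1 CCAAT match 73 bases before it, and start 2 held no match. Which start was used in these livers is not measured by counts per gene. Promoters were matched for 8 of the 10 genes. CCACG was found in 3 of these 8 (Tymp, Upb1 and Cda) and in 28.3% of all 32851 promoters, CCAAT in 3 (Tymp, Upp2 and Upb1) and in 33.8%, and the E-box CACGTG in 0 and in 6.02%. These matches describe letters only and are not evidence of a bound factor.

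Dpyd encodes dihydropyrimidine dehydrogenase, the rate-limiting first step of uracil and thymine breakdown. It had 674 and 776 CPM in fasted WT, 521 and 482 CPM in fasted KO, 602 and 625 CPM in refed WT, and 363 and 235 CPM in the libraries labelled refed KO. Both KO pairs lay below both WT pairs. The genotype difference was -0.53 ± 0.22 in fasted liver (edgeR adjusted p = 0.265) and -1.04 ± 0.23 in refed liver (2.05-fold, edgeR adjusted p = 0.0327). The refed value was -1.39 without replicate 1 (edgeR adjusted p = 0.000316) and -0.76 without replicate 2 (0.0114) of the libraries labelled refed KO. The call was lost without any 1 of the other 6 libraries (edgeR adjusted p from 0.0583 to 0.194). On refeeding the change was -0.24 ± 0.22 in WT (edgeR adjusted p = 0.697) and -0.75 ± 0.23 in KO liver (0.0762), the latter called without replicate 1 of the libraries labelled refed KO (-1.10, edgeR adjusted p = 0.000686) but not without replicate 2 (-0.47, 0.0568).

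Dpys, dihydropyrimidinase, and Upb1, beta-ureidopropionase, carry out the next steps of that route. Dpys was at 284 and 327 CPM in fasted WT, 220 and 208 CPM in fasted KO, 276 and 299 CPM in refed WT, and 165 and 241 CPM in the libraries labelled refed KO. The KO libraries were lower than the WT libraries of the same feeding state, by -0.51 ± 0.21 in fasted liver (edgeR adjusted p = 0.250) and -0.50 ± 0.21 in refed liver (0.142). The refed value was -0.81 without replicate 2 of the libraries labelled refed KO, where it was called (edgeR adjusted p = 0.00843), and -0.26 without replicate 1 (0.142). Upb1 was at 278 and 349 CPM in fasted WT, 272 and 267 CPM in fasted KO, 319 and 363 CPM in refed WT, and 236 and 336 CPM in the libraries labelled refed KO. Its genotypes overlapped in refed liver, and its log2 fold changes were -0.22 ± 0.21 in fasted (edgeR adjusted p = 0.655) and -0.25 ± 0.21 in refed liver (0.420). Neither gene moved with refeeding beyond its spread (edgeR adjusted p from 0.802 to 0.904 in the 2 genotypes).

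Cda encodes cytidine deaminase, which turns cytidine into uridine and so feeds the phosphorylase step. It was at 20.9 and 28.5 CPM in fasted WT, 17.6 and 20.6 CPM in fasted KO, 14.5 and 17.3 CPM in refed WT, and 9.29 and 30.4 CPM in the libraries labelled refed KO. The last pair held both the lowest and the highest value of the 8 libraries. The log2 fold change between genotypes was -0.37 ± 0.48 in fasted (edgeR adjusted p = 0.749) and 0.32 ± 0.48 in refed liver (0.656). Without replicate 1 of the libraries labelled refed KO the refed value was 0.93 (edgeR adjusted p = 0.00718) and without replicate 2 it was -0.78 (0.0433), so its sign rested on which of these 2 libraries was kept. Refeeding in KO liver gave 0.67 (edgeR adjusted p = 0.0274) and -1.04 (0.0188) under the same omissions.

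Xdh encodes xanthine dehydrogenase, which oxidizes hypoxanthine and xanthine to urate. Its level was 98.4 and 96.5 CPM in fasted WT, 107 and 101 CPM in fasted KO, 177 and 170 CPM in refed WT, and 152 and 100.2 CPM in the libraries labelled refed KO. Refed WT lay above all other libraries. The rise on refeeding in WT liver was 1.78-fold in size (log2 fold change 0.83 ± 0.21) with an edgeR adjusted p of 0.0972, over the threshold; the other 9 genes had values of 0.14 or less in that comparison. The rise of Xdh in WT liver was called in DESeq2 (adjusted p = 0.00946). It was also called in edgeR without replicate 1 or 2 of the libraries labelled refed KO, where that group held 1 library. In KO liver the change was 0.27 ± 0.21 (edgeR adjusted p = 0.387), being 0.54 without replicate 2 (0.0124) and -0.059 without replicate 1 (0.663) of the libraries labelled refed KO. The refed genotype difference was -0.46 ± 0.21 (edgeR adjusted p = 0.165), being -0.80 without replicate 1 (0.000923) and -0.20 without replicate 2 (0.210) of that pair. In fasted liver the genotypes differed by 0.097 ± 0.21 (edgeR adjusted p = 0.862).

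Uox encodes urate oxidase, the peroxisomal enzyme that removes urate in mice, and had the highest mean per transcript length of the 10 genes in each group, overlapping with Urah in the libraries labelled refed KO. It had 1307 and 1326 CPM in fasted WT, 706 and 713 CPM in fasted KO, 1130 and 1407 CPM in refed WT, and 709 and 774 CPM in the libraries labelled refed KO. All 4 KO libraries lay below all 4 WT libraries. The genotype difference was -0.89 ± 0.17 in fasted liver, with an edgeR adjusted p of 0.0570 just over the threshold, and -0.77 ± 0.17 in refed liver (1.71-fold, edgeR adjusted p = 0.0339). The fasted difference was called in DESeq2 (adjusted p = 0.000106). It was also called in edgeR without replicate 1 or 2 of the libraries labelled refed KO, where that group held 1 library. Refeeding changed it by -0.054 ± 0.17 in WT (edgeR adjusted p = 0.932) and 0.064 ± 0.17 in KO liver (0.820). The refed call was lost without any 1 of the 6 libraries outside the refed KO pair. It was kept without either library labelled refed KO, but that group then held 1 library, whose own spread was not measured. Over all alternatives and omissions the refed value ranged from -0.93 to -0.62.

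Urah encodes hydroxyisourate hydrolase, the enzyme after Uox. It was at 157 and 185 CPM in fasted WT, 125 and 122 CPM in fasted KO, 173 and 196 CPM in refed WT, and 118 and 313 CPM in the libraries labelled refed KO. The fasted pairs were separate, and the last pair spanned refed WT. The genotype difference was -0.47 ± 0.39 in fasted (edgeR adjusted p = 0.587) and 0.22 ± 0.39 in refed liver (0.702). As with Cda, the refed value was called in opposite directions without replicate 1 (0.76, edgeR adjusted p = 0.00301) and without replicate 2 (-0.65, 0.0193) of the libraries labelled refed KO. The feeding change in KO liver was 0.80 ± 0.39 (edgeR adjusted p = 0.204), and 1.34 (0.000223) and -0.068 (0.770) under those omissions. Of the 1427 exonic bases of Urah, 177 are shared with the antisense transcript C330022C24Rik, which had group means of 1.40 to 2.11 CPM.

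**Figure D2:**
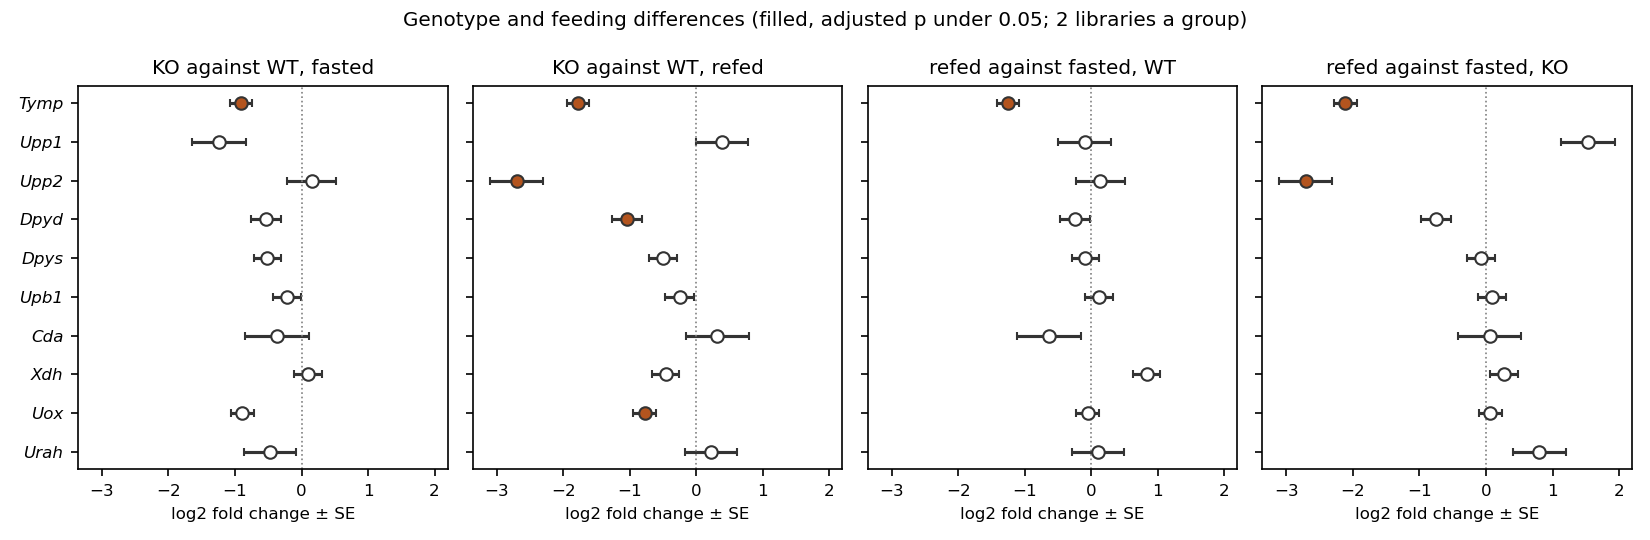
Log2 fold changes (horizontal axis) with standard errors of the 10 breakdown genes in the 4 comparisons between groups of 2 libraries, from edgeR's fit over all 8 libraries; filled points have an adjusted p under 0.05. Tymp is filled in all 4 panels, and Upp2 is filled in the 2 panels that use the libraries labelled refed KO and near 0 (0.15 and 0.14) in the other 2.

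The 4 comparisons share groups, so their values for one gene are not independent. No gene of the 10, and 0 of the 14328 tested genes (0%), had a feeding effect that differed between genotypes at an edgeR adjusted p under 0.05. At an unadjusted p of edgeR's test under 0.05 there were 1209 such genes, 8.44% of those tested, and 3 of the 10 breakdown genes, Tymp, Upp2 and Upp1. The interaction value of Upp1 was 1.63 ± 0.57, with an edgeR adjusted p of 0.580. DESeq2 called 95 genes in this comparison, Upp2 alone among the 10, and limma-trend called 0. Without replicate 1 of the libraries labelled refed KO, edgeR called 3 of the 10 genes higher and 4 lower in this comparison, where 15.4% and 18% of all tested genes were called, and without replicate 2 it called 0 of the 10 (0.458% and 0.232% of tested genes). With 2 libraries a group an exact permutation test of a single gene cannot give a two-sided p below 0.333, so the calls rest on the spread shared across genes.

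**Figure D3:**
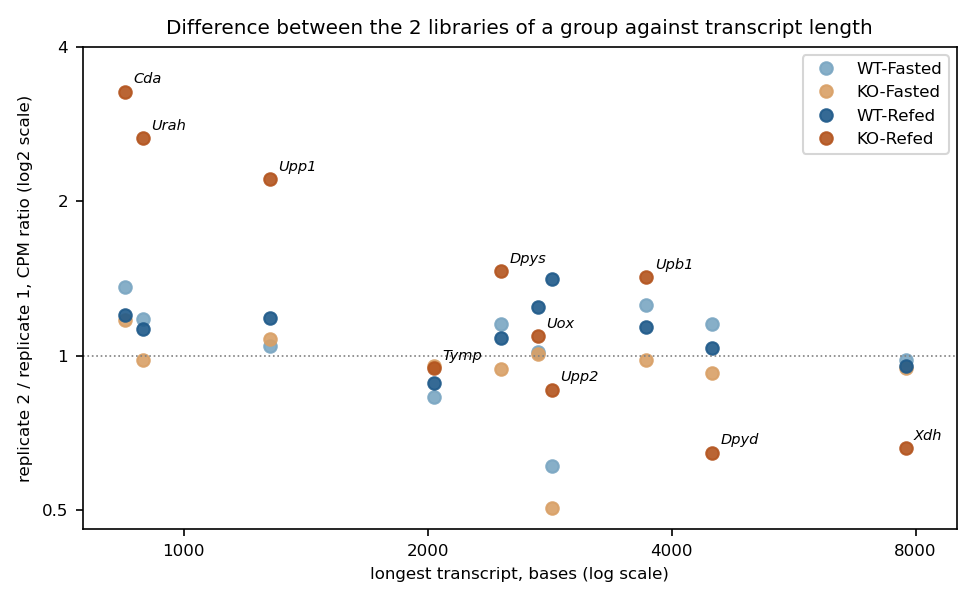
Ratio of replicate 2 to replicate 1 in CPM (vertical axis, log2 scale) against the length of the longest transcript in bases (horizontal axis, log scale) for the 10 breakdown genes; each colour is a group and names mark the libraries labelled refed KO. In that group the short transcripts Cda, Urah and Upp1 are at 3.27, 2.66 and 2.21 and the long transcripts Dpyd and Xdh at 0.647 and 0.660.

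Among the 10 genes, the ratio of replicate 2 to replicate 1 of the libraries labelled refed KO was highest in the 3 shortest transcripts and lowest in the 2 longest. The longest transcripts of Cda, Urah and Upp1 have 846, 890 and 1277 bases, and these genes were 3.27, 2.66 and 2.21 times as high in replicate 2 as in replicate 1. Dpyd and Xdh, with 4492 and 7775 bases, were at 0.647 and 0.660 times, and Tymp, Uox and Upp2, with 2037, 2737 and 2848 bases, were at 0.946, 1.09 and 0.858 times. Dpys and Upb1, with 2466 and 3724 bases, were at 1.46 and 1.42 times, above the shorter Tymp and so out of the order of length. Over all genes, transcripts under 1000 bases had a median log2 ratio of 0.996 (716 genes) and those over 4000 bases one of -0.55 (5154 genes) in this pair. In the other 3 pairs the ratios of the 10 genes lay between 0.504 and 1.41, and the widest were those of Upp2. With an offset for transcript length in each library, the refed genotype values were -1.99 for Tymp (edgeR adjusted p = 0.00346), -2.78 for Upp2 (0.00725), -0.93 for Dpyd (0.00967) and -0.88 for Uox (0.00972). Dpys was then also called lower (-0.66, 0.0299), while the values of Cda (-0.46, 0.222), Urah (-0.49, 0.0767) and Upp1 (-0.12, 0.767) took the opposite sign. Under that offset Xdh was called higher on refeeding in KO liver (0.72, edgeR adjusted p = 0.00921) and the refed genotype difference of Xdh was -0.096 (0.557).

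**Figure D4:**
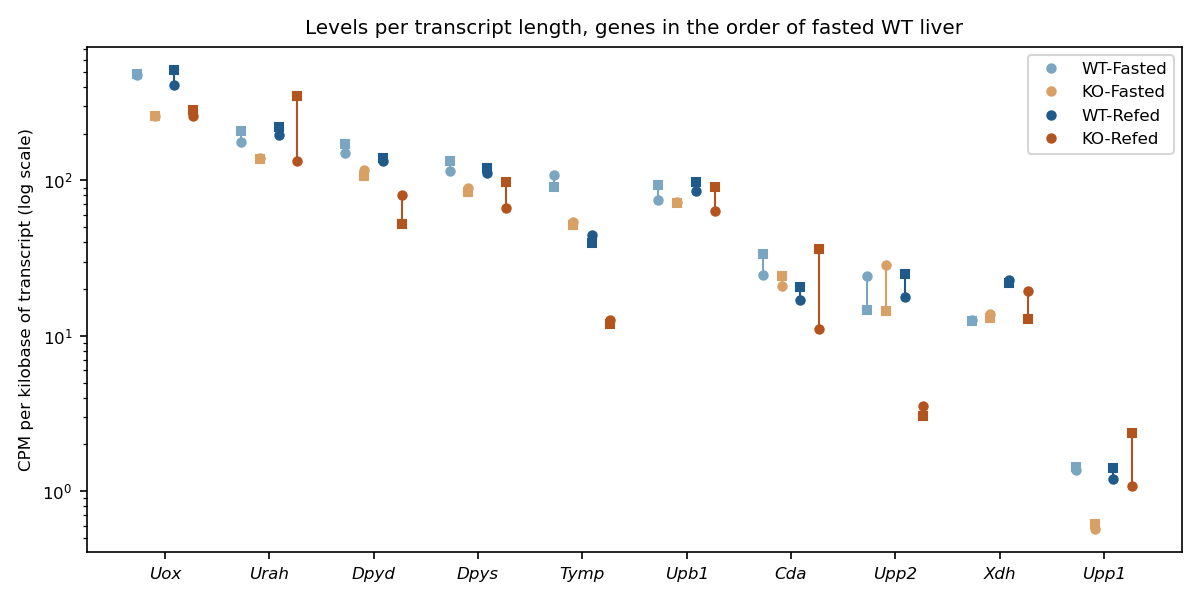
TMM-normalized CPM per kilobase of the longest transcript (vertical axis, log scale) for the 10 breakdown genes in the order of fasted WT (horizontal axis); circles and squares are the 2 libraries of a group and lines join them. Uox has the highest mean in each group, overlapping with Urah in the libraries labelled refed KO, Upp1 is lowest, and Tymp sits below Xdh in the libraries labelled refed KO alone. Lengths include exonic bases shared with neighbouring genes, as in Tymp.

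Per kilobase of transcript, the order in fasted WT liver was Uox (481 ± 4.97 CPM per kilobase (SD, n = 2)), Urah (193 ± 22.2), Dpyd (161 ± 16.1), Dpys (124 ± 12.5), Tymp (99.1 ± 12.8), Upb1 (84.2 ± 13.6), Cda (29.2 ± 6.35), Upp2 (19.4 ± 6.70), Xdh (12.5 ± 0.180) and Upp1 (1.40 ± 0.0438). In this group only the neighbours Tymp and Upb1 overlapped. In fasted KO liver Upb1 (72.3 ± 0.900) stood above Tymp (52.9 ± 1.71), the other places were the same, and Cda and Upp2 overlapped. Refed WT liver again had Uox (463 ± 71.5) first, and Xdh (22.3 ± 0.710), Upp2 (21.4 ± 5.18) and Cda (18.8 ± 2.39) overlapped in places 7 to 9. In the libraries labelled refed KO, Uox (271 ± 16.7) and Urah (242 ± 155) overlapped at the top, Tymp (12.2 ± 0.480) had dropped to place 8, and Upp2 (3.29 ± 0.355) was at place 9. The transcript used for the length is the longest annotated one, and its use in liver was not tested. For Tymp this length includes the 856 exonic bases shared with Sco2 and the 535 shared with Ncaph2. Reads of shared bases may not have been counted, so the level per kilobase and the place of Tymp may be too low.

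**Figure D5:**
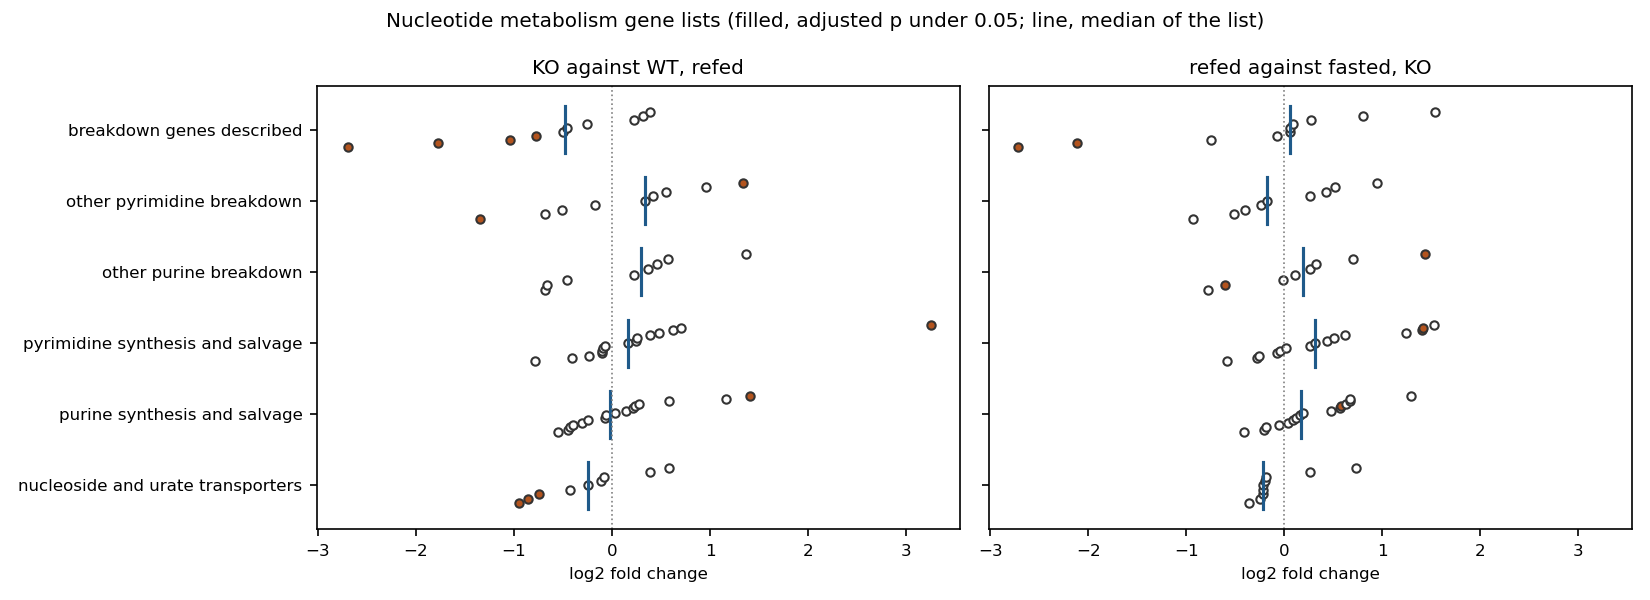
Log2 fold changes (horizontal axis) of the 10 breakdown genes and of 5 lists of other nucleotide metabolism genes (vertical axis), for KO against WT in refed liver and for refed against fasted in KO liver; each circle is a gene, filled circles have an edgeR adjusted p under 0.05 and vertical lines are list medians. The breakdown genes have the lowest list median in refed liver, -0.48, with 4 filled circles below 0.

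Other genes of nucleotide metabolism were counted in 5 lists. Among 9 other pyrimidine breakdown genes, in refed liver 1 was higher and 1 lower in the libraries labelled refed KO, beside 7.09% and 4.84% of all tested genes, and none was called in the other comparisons. The gene that fell was Abat, the aminotransferase that degrades GABA and beta-alanine, a product of the Upb1 step. Abat was at 711 and 753 CPM in refed WT and 347 and 228 CPM in the libraries labelled refed KO, with no overlap (-1.35 ± 0.23, edgeR adjusted p = 0.0180). The gene that rose was Nt5c3b, a nucleotidase, at 2.22 and 2.73 CPM against 5.32 and 7.23 CPM (1.34 ± 0.30, edgeR adjusted p = 0.0349). Both calls were lost without refed WT replicate 1 (edgeR adjusted p = 0.112 and 0.217) or 2 (0.137 and 0.183) and without fasted KO replicate 1 (0.0522 and 0.0700) or 2 (0.0521 and 0.0689), and that of Nt5c3b also without fasted WT replicate 1 or 2 (0.0592 and 0.0600). The median of this list in refed liver was 0.34, of the opposite sign to that of the 10 genes, but the list was split. The mean CPM of the nucleotidases Nt5c, Nt5c3, Nt5c3b, Nt5e and Nt5m was higher in the libraries labelled refed KO than in refed WT. The mean CPM of Abat, Aldh6a1, Agxt2 and Cdadc1 was lower there.

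Of 10 other purine breakdown genes 8 were tested, and none was called between genotypes. On refeeding in KO liver 1 rose, where 5.43% of tested genes were called higher, and 1 fell, where 5.05% were called lower. Ampd2, an AMP deaminase, went from 25.9 and 27.4 CPM in fasted KO to 93.0 and 51.7 CPM in the libraries labelled refed KO (1.44 ± 0.27, edgeR adjusted p = 0.0227). In WT liver it went from 25.6 and 25.7 CPM to 61.4 and 51.1 CPM (1.13, edgeR adjusted p = 0.0869), so both refed groups lay above both fasted groups. Nt5c2, a purine nucleotidase, went from 35.8 and 38.6 CPM to 23.3 and 25.5 CPM in KO liver (-0.61 ± 0.15, edgeR adjusted p = 0.0458, and 0.787 with the length offset). The Nt5c2 call was lost without any 1 of the 6 libraries outside the refed KO pair (edgeR adjusted p from 0.0973 to 0.271), and the Ampd2 call without 5 of those 6 (0.0543 to 0.177), all but fasted WT replicate 2.

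Of 9 tested nucleoside and urate transporters (11 listed), 3 were lower in the libraries labelled refed KO, beside 4.84% of all tested genes, and none was called in fasted liver. Slc17a3, a urate carrier, was at 117 and 116 CPM in refed WT and 53.0 and 67.3 CPM in the libraries labelled refed KO (-0.95 ± 0.19, edgeR adjusted p = 0.0283). Slc2a9, the main urate uptake carrier of hepatocytes, was at 43.1 and 47.5 CPM against 25.7 and 24.4 CPM (-0.86 ± 0.15, edgeR adjusted p = 0.0206). Abcg2, an exporter, was at 125 and 122 CPM against 70.6 and 77.1 CPM (-0.74 ± 0.18, edgeR adjusted p = 0.0409, and 0.183 with the length offset). None of these pairs overlapped. Slc17a1, a carrier related to Slc17a3, was at 11.7 and 15.2 CPM against 10.7 and 14.2 CPM and overlapped (-0.11 ± 0.22, edgeR adjusted p = 0.745). On refeeding in WT liver 2 of the 9 rose, beside 1.2% of tested genes called higher: Slc17a3 from 62.1 and 54.7 CPM (0.997 ± 0.19, edgeR adjusted p = 0.0472) and Slc2a9 from 23.8 and 27.0 CPM (0.84 ± 0.15, edgeR adjusted p = 0.0399). On refeeding in KO liver Slc17a3 went from 31.8 and 40.4 CPM to 53.0 and 67.3 CPM (0.74 ± 0.19, edgeR adjusted p = 0.0528), and Slc2a9 went from 30.9 and 33.2 CPM to 25.7 and 24.4 CPM (-0.35 ± 0.15, edgeR adjusted p = 0.159). Each refed genotype call was lost without refed WT replicate 1 or 2 and without fasted KO replicate 1 or 2. Those of Slc17a3 and Abcg2 were also lost without fasted WT replicate 1 or 2. All 3 were kept without either library labelled refed KO, where that group held 1 library and its spread was not measured. Both WT feeding calls were lost without any 1 of the fasted WT, fasted KO or refed WT libraries (edgeR adjusted p from 0.108 to 0.360).

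In each synthesis and salvage list 1 gene was called between genotypes. Among 16 purine genes 1 was higher in KO liver in fasted (0.921% of tested genes were called higher) and in refed liver (7.09%), Impdh1, a dehydrogenase of the route to GMP. It was at 4.46 and 4.33 CPM in fasted WT, 12.4 and 12.8 CPM in fasted KO, 3.93 and 3.20 CPM in refed WT and 10.5 and 8.42 CPM in the libraries labelled refed KO, so the genotypes were separate in both states. Its genotype difference was 1.51 ± 0.21 in fasted (edgeR adjusted p = 0.0313) and 1.41 ± 0.21 in refed liver (0.0136). The fasted call was lost without any 1 of the fasted WT, fasted KO or refed WT libraries (edgeR adjusted p from 0.0896 to 0.275), and the refed call without refed WT replicate 1 or 2 (0.104 and 0.140). Among 15 pyrimidine genes 1 was called higher in refed liver, Dctd, dCMP deaminase, named after its value was seen because it lies under the mean of 1 CPM set for naming. Dctd had 3 and 6 counts in fasted WT and 53 and 39 in fasted KO. It had 12 and 5 counts in refed WT and 162 and 63 in the libraries labelled refed KO. With these counts it passed the filter only through the KO groups. Its refed call (3.25 ± 0.57, edgeR adjusted p = 0.0196) is thus not independent of the filter. This call was lost without refed WT replicate 1 or 2 (edgeR adjusted p = 0.108 and 0.164) and without fasted KO replicate 1 or 2 (0.0518 and 0.0514).

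On refeeding in KO liver 2 of the 15 pyrimidine synthesis and salvage genes and 1 of the 16 purine ones rose. Over all tested genes 5.43% were called higher in this comparison. Ctps, CTP synthase, went from 12.3 and 9.68 CPM to 33.1 and 25.3 CPM (1.41 ± 0.22, edgeR adjusted p = 0.0142). Umps, which completes UMP synthesis, went from 25.2 and 22.9 CPM to 60.1 and 67.6 CPM (1.41 ± 0.18, edgeR adjusted p = 0.00865). In both genes the refed libraries lay above the fasted ones of the same genotype. Of the 10 breakdown genes Tymp and Upp2 fell in this comparison, but the median of the 10 was 0.059, beside 0.022 over all tested genes. Umps went from 23.5 and 30.8 CPM to 45.6 and 46.0 CPM in WT liver (0.75, edgeR adjusted p = 0.0833). Gart, of the purine synthesis route, rose from 38.9 and 36.8 CPM to 58.1 and 55.0 CPM in KO liver (0.58 ± 0.14, edgeR adjusted p = 0.0444). The calls of Ctps and Umps were lost without fasted KO replicate 1 (edgeR adjusted p = 0.0972 and 0.0869) or 2 (0.145 and 0.107), and that of Gart without any 1 of the 6 libraries outside the refed KO pair (0.0920 to 0.281).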

How the data were processed

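The data were counts per gene symbol for 8 mouse liver libraries, 1 file each. The values deposited by the authors are raw counts, not normalized. The paper's methods name TRIzol RNA, an Illumina NextSeq 500, 1 lane per sample and ERANGE for counts and RPKM with limma for tests, while the submitters' processing notes name cutadapt, STAR, HTSeq and DESeq2 and build mm10, without versions; strand use and annotation are not given in the sources used here. RPKM values and the authors' tests were not used here. Groups came from the sample labels.

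Counts were tested in R 4.3.3 with edgeR 4.0.16. Genes kept by filterByExpr (minimum count 10, minimum total 15) numbered 14328 of 23337. TMM factors scaled the libraries, 1 quasi-likelihood model with 4 group means was fitted to all 8 libraries, and p-values were adjusted by Benjamini-Hochberg over all tested genes of a comparison, with 0.05 as threshold. The ± after a log2 fold change is its SE and n is 2 libraries a group. A group from which a library was left out had 1. At these depths 3 counts correspond to 0.0611 to 0.0746 CPM. Of all symbols, 97.9% matched GENCODE M21 on GRCm38 by symbol or older symbol, which gave positions and transcript lengths, and promoter sequences came from RefSeq on GRCm38.p6. The script was tested on simulated data with known changes.

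The 10 genes, the lists and the markers were chosen with earlier results of these data known. Named were the 10 genes, Syvn1 and, in each list, called genes with a mean of at least 1 CPM, at most 3 per direction and comparison. No p adjusted over a list alone is given. DESeq2 1.42.0, limma-trend (limma 3.58.1), another normalization, other filters, a replicate block, a length offset, a fit of the 4 libraries compared and leaving out each library were tried as alternatives. A comparison of protein sequences was planned and not run.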

Additional observations from a re-analysis of the deposited data

How the results depend on the processing

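No log2 fold change of the 10 genes that passed the threshold in the reported fit took the opposite sign under any of the 9 alternatives or the 8 omissions of a library. Outside the omissions, the refed calls of Tymp, Upp2, Dpyd and Uox were lost only in the fit of the 4 libraries compared. The fasted call of Tymp was lost with the replicate block and with the count minimum below. Over all alternatives and omissions, the refed log2 fold changes were -2.0 to -1.69 for Tymp and -2.93 to -2.43 for Upp2. All of these fits use the same counts and are not further tests of a difference. A count minimum of 10 in every library ended the fasted call of Tymp (edgeR adjusted p = 0.0508). RLE normalization ended the WT feeding call of Slc17a3 (0.0520), and no filter ended the KO feeding calls of Nt5c2 (0.0595) and Gart (0.0691). On refeeding in KO liver DESeq2 called Upp1 higher (adjusted p = 0.00993) and Dpyd lower (0.0177). Depth limits Upp1, with 37 to 138 counts, more than the other 9 genes. Another normalization moved the median of all tested genes by less than 0.1. The cause of the changes listed here was not tested.

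The counts of all tested genes called higher and lower were 132 and 62 in fasted liver, 1016 and 693 in refed liver, 172 and 202 on refeeding in WT and 778 and 723 on refeeding in KO liver. DESeq2 called 632 and 462, 1703 and 1475, 496 and 590, and 1534 and 1387, and 49 and 46 for the interaction. With no filter on low counts, edgeR called 215 and 108 in fasted liver and 2 higher for the interaction. The fits of 4 libraries alone called 1152 and 881 in fasted liver, 909 and 973 on refeeding in WT, and 0 in refed liver and on refeeding in KO. The transcript length offset called 415 and 381 in fasted liver, 1379 lower in refed liver, 378 and 441 on refeeding in WT and 1099 lower on refeeding in KO.

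Same-numbered libraries of different groups deviated together with correlations of only 0.0161 to 0.179 across genes, so the replicate numbers were not taken as pairs. A replicate block called 82 and 37 genes in fasted liver and 1396 genes in refed liver, 305 on refeeding in WT and 1343 on refeeding in KO. Of the 10 genes it called 0, 4, 1 and 2 lower, beside 0.258%, 4.2%, 1.23% and 4.84% of tested genes. Tymp in fasted liver was thus lost (edgeR adjusted p = 0.0597). Among the other genes named, the block ended the refed call of Abcg2 (edgeR adjusted p = 0.0539), both WT feeding calls (Slc17a3 0.0595, Slc2a9 0.0550) and the KO feeding calls of Nt5c2 (0.0586) and Gart (0.0570). The block with the length offset called 331 and 322 in fasted liver, 1377 lower in refed liver and 352 and 389 on refeeding in WT. The count of the 10 genes called lower in fasted liver is given with the share of all tested genes in brackets. It was 2 in DESeq2 (3.22%), 0 with at least 10 counts in every library (0.399%) and 2 with no filter (0.597%). It was 5 in the fit of 4 libraries (6.32%), 3 with the length offset (2.69%) and 2 with block and offset (2.27%). In refed liver it was 0 in the fit of 4 libraries (0%). On refeeding in WT 1 (Xdh) was called higher in DESeq2 (3.46%), in the fit of 4 libraries (6.78%) and with the offset, alone (2.67%) or with the block (2.48%). In KO liver 1 was called higher in DESeq2 (10.7%), with at least 10 counts (6.38%), with no filter (4.46%) and with block and offset (7.23%). There 2 were called higher with the offset (7.81%), and 4 lower with block and offset (7.51%). DESeq2 called 1 of the 10 (Upp2) lower for the interaction (0.321%). In the 5 lists every count under these alternatives lay between 0 and 5, beside 0 to 3 in the reported fit.

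Leaving out 1 library at a time, the counts of all tested genes called higher and lower ranged from 0 to 1436 and 0 to 1723 in fasted liver, 1 to 3653 and 0 to 4052 in refed liver, 0 to 1252 and 0 to 1256 on refeeding in WT, 3 to 3614 and 12 to 3882 on refeeding in KO, and 0 to 2249 and 0 to 2629 for the interaction. The highest counts all came from omitting replicate 1 of the libraries labelled refed KO. For the 10 genes the lower counts ranged over 0 to 6 in fasted liver, 0 to 7 in refed liver, 0 to 2 and 0 to 3 on refeeding in WT and KO and 0 to 4 for the interaction, and the higher counts over 0 to 3, 0 to 1, 0 to 3 and 0 to 3 in refed liver, on refeeding in WT and KO and for the interaction. List counts ranged from 0 to 5.

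Values that took the opposite sign were all outside the threshold in the reported fit. With the length offset, and with block and offset, these were -0.46 and -0.49 for Cda, -0.12 and -0.13 for Upp1 and -0.49 and -0.50 for Urah in refed liver, -0.0168 and -0.0145 for Urah on refeeding in WT, -0.75 and -0.78 for Cda and -0.034 and -0.034 for Uox on refeeding in KO, and -0.11 and -0.13 for Dpys in the interaction. Upb1 in the interaction was 0.042 with the offset, and Cda there was -0.028 with block and offset. Cda on refeeding in KO was -0.18 in limma-trend and -0.097 with the replicate block, and Dpys in the interaction was -0.016 in limma-trend, -0.0011 with no filter and -0.012 with the block. Over the omissions of 1 library, values in refed liver ranged from -0.78 to 0.93 for Cda, -0.29 to 0.85 for Upp1 and -0.65 to 0.76 for Urah, and in fasted liver from -0.43 to 0.56 for Upp2. On refeeding in KO they ranged from -1.04 to 0.67 for Cda, -0.38 to 0.17 for Dpys, -0.0011 to 0.12 for Uox, -0.19 to 0.32 for Upb1, -0.068 to 1.34 for Urah and -0.059 to 0.54 for Xdh. On refeeding in WT the ranges were -0.19 to 0.050 for Dpys, -0.22 to 0.088 for Uox, -0.035 to 0.33 for Upb1, -0.22 to 0.014 for Upp1, -0.15 to 0.54 for Upp2 and -0.00699 to 0.26 for Urah. For the interaction they were -0.40 to 1.30 for Cda, -0.29 to 0.26 for Dpys, -0.024 to 0.28 for Uox, -0.31 to 0.20 for Upb1 and -0.18 to 1.23 for Urah.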
